A study of Mus musculus with 2 samples.

Results

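The solute carriers are the membrane proteins that move sugars, amino acids, ions, metals, vitamins and fatty acids into and out of cells and organelles. They were described here in lists of H3K36me2 peaks from mouse colon, as every gene of the lists whose symbol has the form of the letters Slc, a family number, a letter and a member number, apart from *Slc45a4*. This rule found 227 genes among the 18187 genes with a listed peak. They held 307 of the 19976 peaks of the *Nsd2* fl/fl library and 320 of the 23518 peaks of the *Nsd2* ΔIE library. The symbols include 6 that are not carriers themselves, namely the scaffold proteins *Slc9a3r1* and *Slc9a3r2*, the pseudogene *Slc2a4rg-ps* and the opposite-strand genes *Slc36a1os*, *Slc7a6os* and *Slc13a2os*. Of these, *Slc13a2os* had a peak in *Nsd2* ΔIE only, *Slc9a3r2* had peaks in both libraries and the other four had one in *Nsd2* fl/fl only.

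In an epithelium, carriers work on opposite faces of the cell. Those of the brush border take up a substrate from the lumen, often with sodium or protons, and those of the basolateral side hand it to the blood. The colon is known for salt and water absorption by sodium-proton and chloride-bicarbonate exchangers and for the uptake of short-chain fatty acids by monocarboxylate carriers, while most sugar, peptide and amino acid uptake takes place in the small intestine. H3K36me2, the dimethyl mark on lysine 36 of histone H3, is laid down by NSD2 and related enzymes, mostly within and between active genes. In CUT&Tag, the transposase Tn5 is led to the mark by an antibody and tags the DNA around it.

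The study compared this mark in 1 colon library of *Nsd2* fl/fl mice, whose *Nsd2* alleles are floxed but intact, with 1 colon library of *Nsd2* ΔIE mice, in which Villin-Cre removes *Nsd2* from the intestinal epithelium. By the methods the mice were male C57BL/6J littermates that entered the diet at 7 to 8 weeks of age. Both groups received HFCD, a high-fat cholesterol diet, for 18 weeks by the methods and for 16 weeks by the deposited design text. Cre driven by Villin leaves *Nsd2* intact in the muscle, stroma, nerves and immune cells of the colon wall, and the libraries were made from colon tissue. How many mice a library holds is not given in the sources used here.

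With 1 library per genotype there are no replicates, so no difference between the genotypes has an error or a test, and each value below describes these libraries. How deeply either library was sequenced is unknown. The lowest summed signal listed was 21783 for *Nsd2* fl/fl but 16571 for *Nsd2* ΔIE, and the median width of all peaks was 4643 bp and 3426 bp, so signal was compared only within a list. Of the markers of the tissue, 6 of 11 colon epithelial genes had a peak in the *Nsd2* fl/fl list, and 8 of 11 in that of *Nsd2* ΔIE. In the same order, 2 and 3 of 8 immune genes and 2 and 2 of 7 stromal and muscle genes had one. So did 2 and 3 of 4 genes of enteric neurons. Over all protein-coding genes of a RefSeq table, the shares with a peak were 30.9% and 32.9%. The epithelial genes *Vil1*, *Cdx1*, *Hnf4a*, *Muc2* and *Cdh1* had peaks in both libraries, while *Epcam* and the leukocyte gene *Ptprc* had one in *Nsd2* ΔIE alone. The part of other cell types in the results was not tested, and fewer cells of a type cannot be told apart from less of the mark per cell. *Nsd2* itself had a peak of 3766 bp at its promoter in *Nsd2* ΔIE and none in the control library, which is no measure of the deletion.

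A peak was listed for many solute carriers. A RefSeq gene table holds 372 protein-coding genes that follow the rule, and 223 of them, 59.9% (95% Wilson interval 54.9% to 64.8%), had a peak in at least 1 library. Over all 21900 protein-coding genes of the table the share was 43.4%. Long genes are listed more often, and the carriers were longer, with a median of 28700 bp against 17146 bp. When genes were split by length into 4 equal bins, 13 of 23 carriers (56.5%) in the shortest bin were listed against 1312 of 5477 genes, and in the next bin 61 of 86 (70.9%) against 45.6%. The shares were 55.3% and 46.7% in the following bin and 58.4% and 57.2% in the longest. The intervals given here and below cover the counting of genes or peaks only. Of the 18187 listed genes, 9494 had the symbol of a protein-coding gene of the table, but 223 of the 227 carriers did. The shares of all listed genes and all peaks below were not matched to the carriers for gene type or gene length.

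In size the carriers' peaks were close to the rest. Their median width was 4743 bp in the control list and 3398.5 bp for *Nsd2* ΔIE, and their median signal per bp was 6.42 and 6.46, against 6.14 and 6.32 over all peaks. Together they covered 1620981 bp in the control and 1236964 bp in the other library, a log2 ratio of -0.39 where all peaks gave -0.23. Of 178 carriers with a peak in *Nsd2* fl/fl, 102 (57.3%) had 1 peak and 29 (16.3%) had 3 or more. Over all genes of that list the shares were 66.5% and 13.5%. In *Nsd2* ΔIE the numbers were 92 (52.9%) and 35 (20.1%) of 174 carriers, against 62.0% and 16.3% of all genes. Peaks among the strongest 25% of their list by summed signal made up 31.9% (27.0% to 37.3%) of the carriers' peaks in the control and 29.4% (24.7% to 34.6%) in the *Nsd2* ΔIE list.

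The carriers' peaks lay nearer to gene starts than listed peaks in general. Promoter peaks, within 3 kb of a transcription start site (TSS) by the authors' annotation, made up 41.7% (36.3% to 47.3%) of the carriers' peaks in *Nsd2* fl/fl against 32.1% of all peaks. In *Nsd2* ΔIE the shares were 35.9% (30.9% to 41.3%) and 27.9%. A TSS lay within the peak for 25.4% against 17.5% in *Nsd2* fl/fl and for 15.6% against 12.2% in *Nsd2* ΔIE. Peaks in 5′ UTRs were also more frequent, with 7.82% against 3.49% and 5.63% against 2.92%. Fewer lay in introns, 14.0% against 21.0% and 14.1% against 23.6%. Distal intergenic peaks were the rarest relative to all peaks in *Nsd2* fl/fl, with 19 of 307 (6.19%) against 3598 of 19976, while *Nsd2* ΔIE had 42 of 320 (13.1%) against 20.1%. Within the carriers, the promoter share was thus lower and the distal share higher in the *Nsd2* ΔIE library, as in the lists as a whole.

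**Figure D1:**
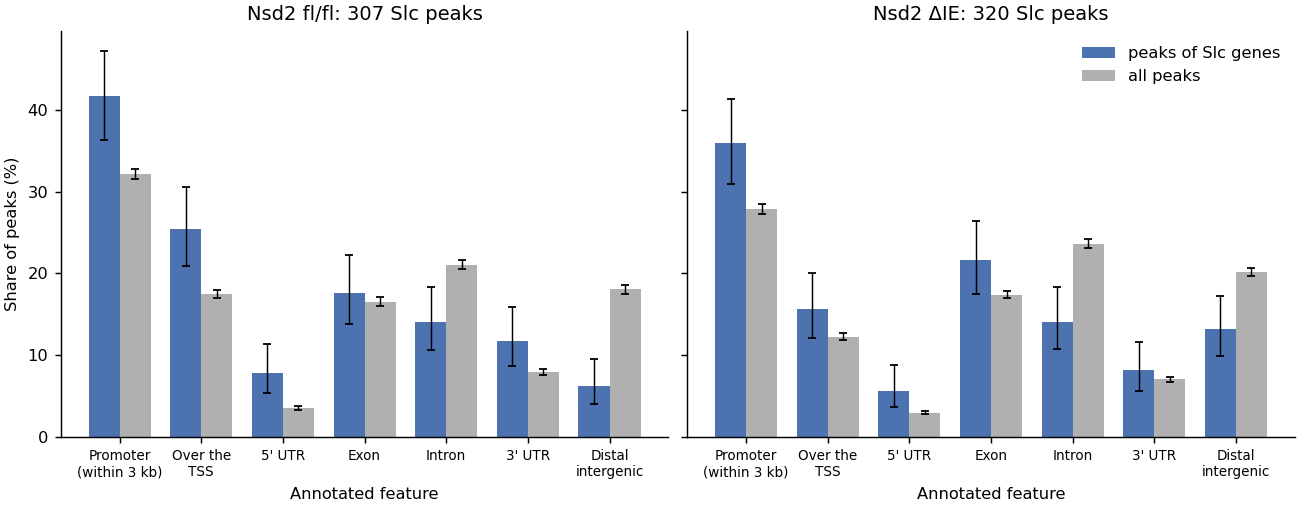
Share of peaks (%, y axis) in each annotated feature (x axis) for the peaks of Slc genes (blue) and all peaks (grey) in each library, with 95% Wilson intervals as error bars. Peaks over a TSS are also counted among the promoter peaks. The blue promoter bars, 41.7% and 35.9%, stand above the grey ones, and the blue bars of introns and distal intergenic peaks stand below theirs.

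Measured at the point of highest signal in each peak, 9.45% of the carriers' peaks in *Nsd2* fl/fl had their maximum in the 2 kb before the TSS and 9.77% in the 2 kb after it, against 6.01% and 7.09% of all peaks. In *Nsd2* ΔIE the highest share lay further into the gene, with 32 of 320 peaks between 2 and 4 kb, against 1505 of 23518 of all peaks. The 2 kb before the TSS held 25 of 320 there and the 2 kb after it 24.

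**Figure D2:**
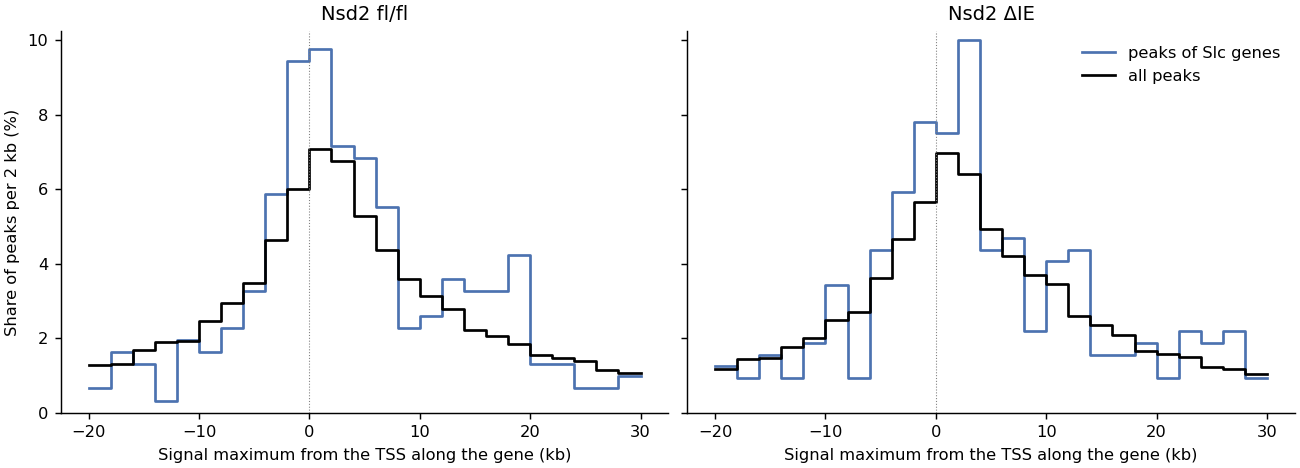
Position of the highest signal of each peak along its gene (x axis, kb from the TSS, in bins of 2 kb) as a share of peaks (y axis, %) in each library, for Slc genes (blue) and all peaks (black). The blue line is above the black line within 4 kb of the TSS in both libraries and scatters around it further away, where each bin holds few of the 307 and 320 peaks.

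The TSS was covered by a peak in 73 carriers in the control and in 47 in *Nsd2* ΔIE, of which 15 had this in both. These are 32.2%, 20.7% and 6.61% of the listed carriers, against 18.3%, 15.1% and 4.53% of all listed genes, so that the share was lower in *Nsd2* ΔIE in both sets. Among the 15 were *Slc2a9*, *Slc4a9*, *Slc6a7*, *Slc6a9*, *Slc6a19*, *Slc6a21*, *Slc7a4*, *Slc9a8*, *Slc16a3*, *Slc19a1*, *Slc25a22*, *Slc25a28*, *Slc29a4* and *Slc52a3*. Of the 58 carriers with a covered TSS in *Nsd2* fl/fl alone, 42 still had a peak elsewhere in *Nsd2* ΔIE and 16 had none. Of the 32 with a covered TSS in *Nsd2* ΔIE alone, 17 had a peak elsewhere in *Nsd2* fl/fl and 15 had none. A gene can have several TSSs, and the covered one was not always the same in both libraries.

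Promoter sequences were available from RefSeq for 288 protein-coding carriers, in 366 windows of 250 bases before to 50 bases after a TSS on GRCm38.p6. The lists use another build. For 96 windows of 88 carriers the TSS could be matched to the lists, because its offset between the builds was the same as that of the other end of the gene. The 250 bases before the TSS are shown for 4 of them, with CG dinucleotides, the sites of DNA methylation, in capitals. The TSS of *Slc19a1*, the reduced folate carrier (chr10:77032489-77032738, plus strand), was covered in both libraries. That of *Slc2a12*, a glucose transporter (chr10:22644761-22645010, plus strand), and that of *Slc12a7*, a potassium-chloride cotransporter (chr13:73763410-73763659, plus strand), were covered in *Nsd2* fl/fl alone. That of *Slc24a4*, a sodium-calcium-potassium exchanger (chr12:102128477-102128726, plus strand), was covered in *Nsd2* ΔIE alone.
Slc19a1: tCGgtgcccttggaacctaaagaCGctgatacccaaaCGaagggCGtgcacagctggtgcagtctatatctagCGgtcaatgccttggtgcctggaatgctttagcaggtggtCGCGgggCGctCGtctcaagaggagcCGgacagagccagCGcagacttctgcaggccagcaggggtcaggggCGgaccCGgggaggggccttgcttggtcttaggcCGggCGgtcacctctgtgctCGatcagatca
Slc2a12: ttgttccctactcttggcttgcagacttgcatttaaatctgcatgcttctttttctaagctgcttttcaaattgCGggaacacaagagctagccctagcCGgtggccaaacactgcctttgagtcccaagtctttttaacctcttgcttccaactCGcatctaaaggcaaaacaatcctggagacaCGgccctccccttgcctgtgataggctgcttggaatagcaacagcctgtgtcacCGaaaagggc
Slc12a7: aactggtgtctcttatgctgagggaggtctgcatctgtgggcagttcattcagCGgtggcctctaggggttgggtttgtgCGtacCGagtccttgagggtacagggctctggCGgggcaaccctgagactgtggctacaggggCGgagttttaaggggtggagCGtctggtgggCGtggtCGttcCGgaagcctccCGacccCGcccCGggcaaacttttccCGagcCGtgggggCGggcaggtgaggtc
Slc24a4: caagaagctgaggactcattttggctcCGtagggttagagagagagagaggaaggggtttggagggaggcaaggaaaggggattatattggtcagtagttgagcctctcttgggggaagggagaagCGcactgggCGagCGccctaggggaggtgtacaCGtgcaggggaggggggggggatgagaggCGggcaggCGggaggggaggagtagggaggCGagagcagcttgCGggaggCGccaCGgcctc

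These stretches hold 16, 5, 15 and 11 CG dinucleotides. Both CG-rich and CG-poor promoters were thus among the covered ones. Over all windows of the carriers, the median observed to expected ratio of CG was 0.56, against 0.57 over all 21263 protein-coding windows. It was 0.41 for the 70 windows of carriers with a covered TSS in *Nsd2* fl/fl alone, 0.61 for the 28 in *Nsd2* ΔIE alone and 0.41 for the 15 in both. Over all genes in the same states it was 0.60, 0.54 and 0.48. These medians take every window of such a gene, also windows whose own TSS no peak covered. They are thus not the CG content of the covered promoters alone. Low-CG promoters whose own TSS was covered in *Nsd2* fl/fl alone included those of *Slc22a8*, at 0.05, and *Slc2a2*, at 0.12. The first is a renal organic anion transporter and the second the low-affinity glucose transporter GLUT2. The GC box, GGGCGG on either strand, was found in 57.7% of the carriers' windows and 46.2% of all windows, and TATAAA on either strand in 9.84% and 12.6%. These matches describe the sequence only.

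By position, 117 of the 307 carrier peaks of *Nsd2* fl/fl, 38.1% (32.9% to 43.7%), overlapped a peak of *Nsd2* ΔIE by at least 1 bp, where 34.1% of all peaks did. In the other direction 114 of 320, 35.6% (30.6% to 41.0%), overlapped, against 30.7% of all. Sharing went with strength, taken as summed signal, which includes the width of a peak. A wider peak also meets the 1 bp limit more easily, and the part of width was not tested. Among carrier peaks of the strongest 25% of their list, 60.2% and 54.3% were shared, and of the weakest 25%, 18 of 69 and 18 of 72. Over all peaks the shares were 55.6% and 49.1% of the strongest and 21.7% and 20.5% of the weakest, the same order. Sharing also went with place. Promoter peaks were shared in 47.7% and 46.1%, 3′ UTR peaks in 16 of 36 and 13 of 26, introns in 20.9% and 26.7%, and distal intergenic peaks in 2 of 19 and 2 of 42. Over all peaks, promoter peaks were shared in 41.0% and 38.4%, 3′ UTR peaks in 45.2% and 41.6%, introns in 26.2% and 24.5%, and distal intergenic peaks in 21.8% and 18.3%. Promoter and 3′ UTR peaks were thus shared more often than intronic and distal ones in the lists as a whole too. Asking for an overlap of 50% of both peaks left 16.3% and 15.6% shared.

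By gene, 125 of the 227 carriers had a peak in both libraries (55.1%, 48.6% to 61.4%), against 43.3% of all listed genes. Nearly all carriers are protein-coding, unlike the listed genes, and what gene type or length adds to such differences was not tested. A peak was listed in *Nsd2* fl/fl alone for 53 carriers, 23.3% against 25.2% of all genes, and in *Nsd2* ΔIE alone for 49, 21.6% against 31.5%. Of the 53, 4 carriers held a peak whose place was taken in *Nsd2* ΔIE by a peak of another gene, and of the 49, 2 did so in *Nsd2* fl/fl. Where both libraries had peaks, they overlapped in 80 of the 125 carriers, 64.0% against 60.7% of all such genes.

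The length covered by a gene's peaks was used to compare the libraries. The log2 ratio took *Nsd2* ΔIE over the control. Under -0.5 it was called less and over 0.5 more. Among the 125 carriers with peaks in both, 60 had less length (against 41.8% of all such genes), 43 were similar and 22 had more (17.6%, against 19.0%). The median log2 ratio was -0.46 for the carriers and -0.32 for all genes, with 84 of the 125 carriers (67.2%) below 0, near the 64.3% of all such genes. Adding the genes of 1 library gave 113 carriers with less length, 49.8% against 43.3% of all genes, and 71 with more, 31.3% against 39.7%. By numbers of peaks in place of length, 78 carriers had fewer and 81 more in *Nsd2* ΔIE, which turns the balance of more minus less from -42 to 3, and over all genes the balance went from -661 to 1969. With the log2 ratios centred on the median of all genes, 96 carriers (42.3%) had less and 83 (36.6%) more length. Over all genes 37.5% had less and 44.0% more at this setting. The counts of less and more for the groups below include the genes of 1 library, and where lengths are given in pairs, that of *Nsd2* fl/fl comes first. Of 37 carriers with 1 peak in each library, 32 (86.5%) were shorter in *Nsd2* ΔIE, with a median log2 ratio of -0.61. Of all 2831 such genes 76.6% were shorter, with a median of -0.42.

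**Figure D3:**
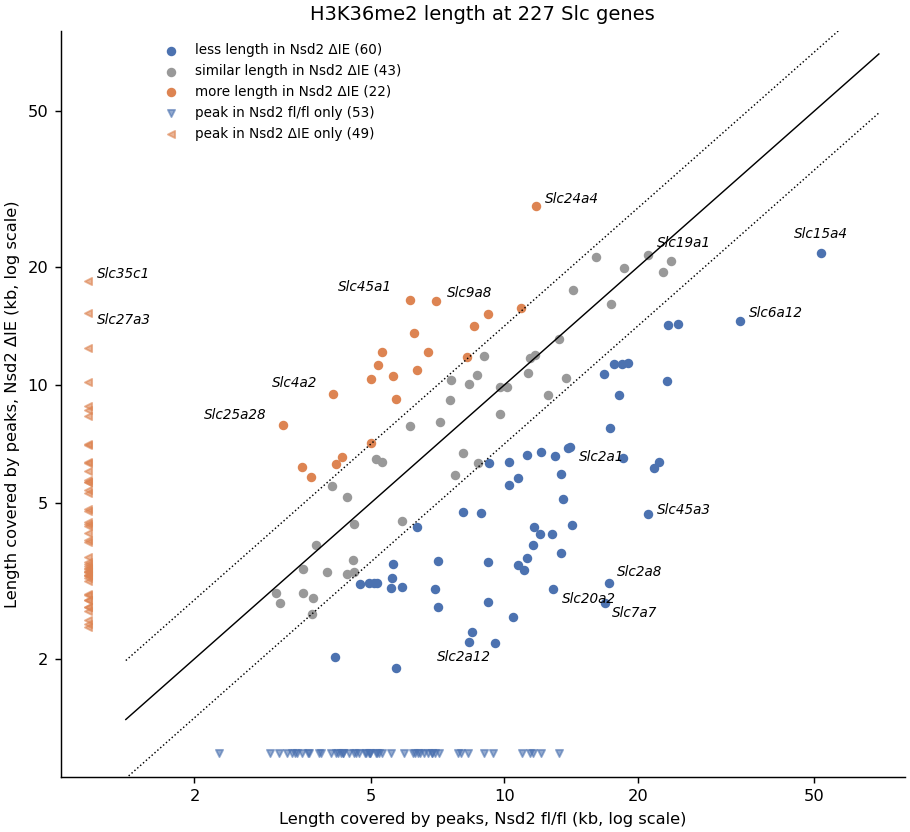
Length covered by the peaks of each of the 227 Slc genes in *Nsd2* fl/fl (x axis) and *Nsd2* ΔIE (y axis), in kb on log axes. The solid line marks equal length, the dotted lines a log2 ratio of -0.5 and 0.5, and triangles along the axes are genes with a peak in 1 library only. More points lie under the lower dotted line (60) than over the upper one (22).

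The 5 carriers with the lowest log2 ratios all had 1 peak in *Nsd2* ΔIE, and in each of them it overlapped a peak of the control. *Slc7a7*, which exports cationic amino acids from the basolateral side, had 4 peaks of 16858 bp in all in the control against 1 of 2784 bp, a log2 ratio of -2.60. The single peak shared 2317 bp with the *Nsd2* fl/fl peak over exon 2. *Slc2a8*, an intracellular hexose transporter, had 17251 bp and 3115 bp, but 3 of its 4 *Nsd2* fl/fl peaks lay in exons of the neighbouring *Garnl3*. *Slc45a3*, a putative sugar transporter, had 21047 bp and 4689 bp. The glucose transporter *Slc2a12* had 9510 bp over its promoter in the control but only 2196 bp, in intron 1, in *Nsd2* ΔIE. *Slc20a2*, a sodium-phosphate cotransporter, had 12860 bp and 3019 bp, and the *Nsd2* ΔIE peak lay wholly within the *Nsd2* fl/fl peak over exon 7.

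The 5 highest log2 ratios came from wider peaks or from more of them. *Slc45a1*, a sugar transporter known from brain, had 6134 bp in 1 peak of the control against 16453 bp in 4 peaks, a log2 ratio of 1.42, with no overlap. *Slc24a4* had 11768 bp in 3 peaks and 28609 bp in 7, of which 4 were distal intergenic before the gene. *Slc9a8*, a sodium-proton exchanger of the intestinal brush border, had 7021 bp in 2 peaks and 16392 bp in 5. *Slc4a2*, the chloride-bicarbonate exchanger AE2, had 4113 bp and 9462 bp, all at the promoter in both. *Slc25a28*, which carries iron into mitochondria, had 1 peak at the promoter in each, and the 3166 bp of the control lay wholly within the 7922 bp of *Nsd2* ΔIE.

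For the transporters known from colonic epithelium, a list of 45 genes was made. A peak was listed for 24 of them (53.3%, 39.1% to 67.1%), against 59.9% of protein-coding carriers and 43.4% of all protein-coding genes. Of the 24, 6 were listed in *Nsd2* fl/fl alone, 6 in *Nsd2* ΔIE alone and 12 in both, against 25.2%, 31.5% and 43.3% of all listed genes. Peaks overlapped in 10 of the 12, where 60.7% of all genes with peaks in both had overlapping ones. Length was less in 3, similar in 8 and more in 1 of these 12, against 41.8%, 39.1% and 19.0% of all such genes. Over the list the balance, the genes with more minus the genes with less length, was -2, and it turned to 2 with centred ratios and by numbers of peaks. The absorptive carriers *Slc9a3* and *Slc16a1* were among those listed in *Nsd2* ΔIE alone, with 8339 bp and 3261 bp. No peak was listed for 21. Among them were the chloride-bicarbonate exchanger *Slc26a3*, the sulfate carrier *Slc26a2*, the sodium-proton exchanger *Slc9a2* and the short-chain fatty acid carrier *Slc5a8*. The other 17 were *Slc1a5*, *Slc2a5*, *Slc3a2*, *Slc4a7*, *Slc6a14*, *Slc7a8*, *Slc7a11*, *Slc9a4*, *Slc10a2*, *Slc19a3*, *Slc22a5*, *Slc37a2*, *Slc39a4*, *Slc39a8*, *Slc40a1*, *Slc51a* and *Slc51b*. This says only that no region past the limit of a list had one of these as its nearest gene.

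**Figure D4:**
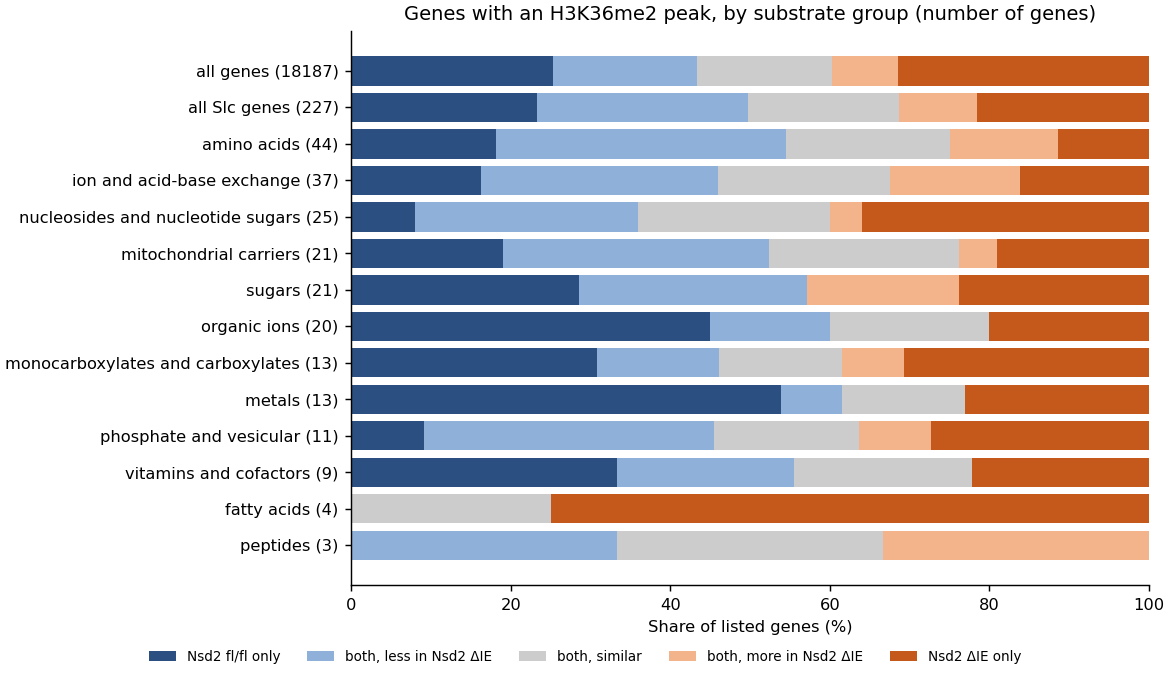
Share of listed genes (x axis, %) by library and covered length for all genes, all Slc genes and 12 groups of Slc families by substrate (y axis, number of genes in brackets). Dark ends are genes with a peak in 1 library only, light parts genes with a peak in both, and the dark blue end is longest for metals (7 of 13) and the dark orange end for fatty acids (3 of 4).

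Carriers of amino acids and neurotransmitters formed the group with most listed genes, 44 in all, from families 1, 6, 7, 36, 38 and 43. Less length was found in 24 and more in 11, and the total went from 405632 bp to 266801 bp. Of 31 genes with peaks in both libraries, 21 had overlapping ones, where 60.7% of all such genes did. In the sodium-coupled family 6, *Slc6a12*, which carries betaine and GABA, had the widest carrier peak of *Nsd2* fl/fl, 15708 bp in a stretch annotated as 3′ UTR beyond the gene (chr6:121345805-121361512 in the lists), and a peak of 12091 bp at the same place in *Nsd2* ΔIE (chr6:121344520-121356610), with 10806 bp in common. A peak of 10399 bp over its TSS was listed in *Nsd2* fl/fl only, which left 33999 bp against 14596 bp.

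*Slc6a7*, a proline transporter of family 6, had 22865 bp and 19388 bp with 13006 bp in common. *Slc6a6*, the taurine transporter, had 23726 bp and 20780 bp, and its peak in exon 14 had the highest signal per bp of the carriers in *Nsd2* ΔIE, 11.3. *Slc6a4*, the serotonin transporter, had 8082 bp and 6709 bp. Of the family's 16 genes, 7 had less length, 5 were similar and 4 had more, and 14 had peaks in both libraries. The share with less length was near the 43.3% of all listed genes, of which 39.7% had more. The glycine transporters *Slc6a9* and *Slc6a5* both had less length, 18493 bp against 6504 bp and 18409 bp against 11315 bp. So did *Slc6a17* of synaptic vesicles and *Slc6a21*. *Slc6a2*, the noradrenaline transporter, had more, 6362 bp against 10906 bp, and *Slc6a11*, a GABA transporter of glia, was similar. *Slc6a20b* had a peak in *Nsd2* ΔIE only.

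In family 7, 7 of 11 genes (63.6%) had less length, against 43.3% of all genes. The sum was 101374 bp in the control and 54834 bp in *Nsd2* ΔIE. *Slc7a1*, a carrier of cationic amino acids, had 22368 bp in 4 peaks and 6366 bp in 2. *Slc7a9*, the light chain of the brush border cystine transporter, had a single *Nsd2* fl/fl peak of 14208 bp that overlapped a *Nsd2* ΔIE peak annotated to *Gm42378*, and its own 4403 bp in *Nsd2* ΔIE lay in *Tdrd12*. *Slc7a5*, the large neutral amino acid transporter LAT1, was similar, with 12552 bp and 9428 bp and 6040 bp in common. The proton-coupled family 36 had no gene with more length. *Slc36a1* had 10244 bp and 5563 bp, and *Slc36a4* had 12079 bp in 3 peaks and none in *Nsd2* ΔIE. In family 38, the glutamine transporter *Slc38a3* had 10116 bp and 9880 bp and the second highest signal per bp of the carriers in *Nsd2* fl/fl, 9.94, and *Slc38a8* had 8671 bp and 10627 bp. *Slc6a18*, an amino acid transporter of kidney and gut, had a TSS peak of 6724 bp in *Nsd2* fl/fl alone. In that library alone were also the peaks of *Slc7a15*, *Slc38a2* and *Slc43a3*, of 3405 to 5172 bp, while *Slc7a2*, *Slc38a6*, *Slc38a7* and *Slc43a2* had peaks of 3275 to 7049 bp in *Nsd2* ΔIE alone. *Slc7a4*, *Slc7a6*, *Slc38a1*, *Slc38a10* and *Slc43a1* had less length in *Nsd2* ΔIE. *Slc1a7*, *Slc7a10* and *Slc7a14* had more, the neutral amino acid carrier *Slc7a10* with 5012 bp against 10334 bp. *Slc1a7* was the only listed gene of the glutamate carrier family 1, of 7 in the RefSeq list.

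Among 21 listed sugar carriers and relatives, 12 (57.1%) had less length and 9 (42.9%) more, with none similar, against 43.3% and 39.7% of all genes. The median log2 ratio of the 10 with peaks in both was -1.10, where all such genes gave -0.32. *Slc2a1*, the glucose transporter GLUT1, had 1 peak of 14049 bp in *Nsd2* fl/fl (chr4:118974110-118988158 in the lists). All of this peak was annotated as promoter, though it lay away from the outermost TSS of the gene in the lists. In *Nsd2* ΔIE, 5012 bp close to that outermost TSS were annotated as promoter, where *Nsd2* fl/fl had no peak. Another 1938 bp of *Nsd2* ΔIE lay within the *Nsd2* fl/fl peak, at a high signal per bp of 10.8. The intestinal glucose carriers were listed in *Nsd2* fl/fl only, with 4328 bp over the TSS of *Slc2a2* and 3861 bp before *Slc5a1*, the sodium-glucose cotransporter SGLT1. By summed signal these peaks ranked 6866 and 18536 of 19976, the second of them near the limit of the list. *Slc5a2*, the related SGLT2 of kidney, had 6044 bp in *Nsd2* ΔIE only, as had *Slc2a10*, with 5304 bp. *Slc2a9*, which carries urate, had 9187 bp and 15164 bp without overlap. *Slc5a10* had 21726 bp and 6126 bp, the latter wholly within the former, and *Slc5a11*, an inositol cotransporter, 23313 bp in 5 peaks and 10230 bp in 4. The glucose transporter *Slc2a3* (GLUT3), with 6884 bp, and the iodide carrier *Slc5a5*, with 6292 bp, were listed in *Nsd2* fl/fl only, as was *Slc2a7*. In *Nsd2* ΔIE only were *Slc5a4b*, *Slc5a9* and *Slc37a3*, with 5736 bp, 8632 bp and 2915 bp. More length was also found for *Slc2a6*, 5202 bp against 11222 bp, and for *Slc37a1*, 10907 bp against 15694 bp.

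**Figure D5:**
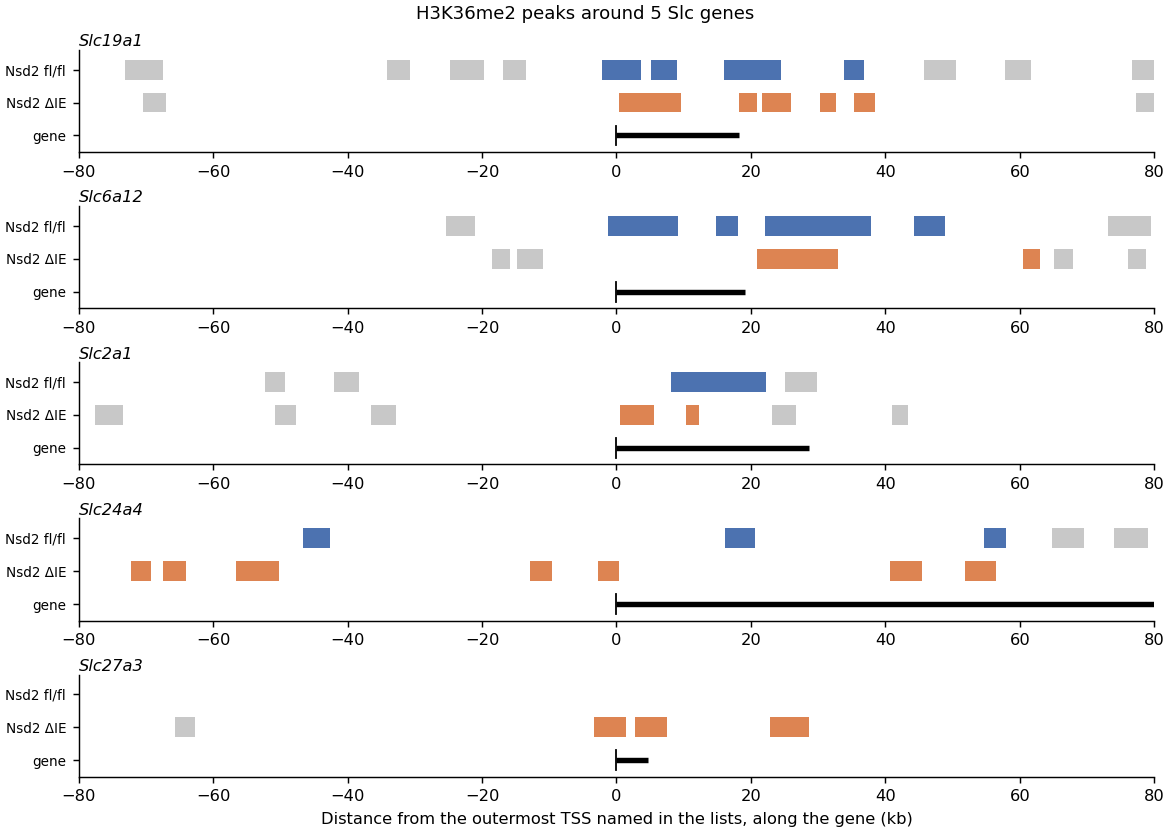
Peaks around 5 Slc genes in *Nsd2* fl/fl (blue) and *Nsd2* ΔIE (orange), in kb along the gene from its outermost TSS in the lists (x axis), with the gene as a black bar and peaks of other genes in grey. The bar of *Slc24a4* is cut at 80 kb. The libraries coincide over much of *Slc19a1* and after *Slc6a12*, and *Slc27a3* has peaks in *Nsd2* ΔIE only.

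The 37 carriers of salt and acid-base transport split more evenly, with less length in 17, similar length in 8 and more in 12. Less and more made up 45.9% and 32.4%, where the shares of all genes were 43.3% and 39.7%. The sums were 286802 bp and 251634 bp. The balance of more minus less, -5, turned to 1 when the log2 ratios were centred on the median of all genes, and to 3 by numbers of peaks. In the cation-chloride family 12, 6 of 8 genes had less length, among them *Slc12a1*, *Slc12a3*, *Slc12a5*, *Slc12a7* and *Slc12a8*, and *Slc12a2* and *Slc12a4* were listed in *Nsd2* ΔIE only. *Slc12a7* had 24688 bp in 5 peaks and 14337 bp in 3, all 3 of them on *Nsd2* fl/fl peaks, and its peak in intron 1 reached 9.61 per bp in *Nsd2* fl/fl. *Slc12a5* had 13566 bp and 5106 bp. *Slc12a2*, the basolateral chloride uptake carrier of secreting cells, had 2461 bp in *Nsd2* ΔIE, in a distal intergenic peak. Of the sodium-proton exchangers, *Slc9a3*, the absorptive exchanger of the brush border, had 3 peaks of 8339 bp in intron 1 in *Nsd2* ΔIE only. Its scaffold gene *Slc9a3r1* had 4330 bp in *Nsd2* fl/fl only. Among bicarbonate carriers, *Slc4a1* had 17300 bp and 7767 bp, all of the latter shared, and *Slc4a4*, the basolateral sodium-bicarbonate cotransporter, had 8997 bp and 11871 bp without overlap. Of the anion exchangers, *Slc26a6* had promoter peaks of 9769 bp and 8409 bp, and *Slc26a11* 6271 bp and 13579 bp. The sodium-calcium exchangers were mixed. *Slc8a1*, the form of heart muscle, had 10208 bp in *Nsd2* ΔIE only, *Slc8a2* had 13935 bp against 6923 bp, *Slc8a3* was similar and the mitochondrial *Slc8b1* had 3662 bp against 5816 bp. In the potassium-dependent family 24, *Slc24a3* had 23466 bp against 14226 bp and *Slc24a5*, known from pigment cells, 16750 bp against 10663 bp, with *Slc24a2* similar and *Slc24a4* the exception in the other direction. Less length was also found in *Slc4a3*, *Slc9a3r2* and *Slc26a1*, and similar length in *Slc4a5*, *Slc26a5* and *Slc26a9*. *Slc4a11*, *Slc9a5* and *Slc26a8* were listed in *Nsd2* fl/fl only, with 4223 to 6386 bp, and *Slc4a8* and *Slc26a10* in *Nsd2* ΔIE only. *Slc4a9*, a bicarbonate carrier of kidney, had more length and its TSS covered in both.

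Among the groups of 10 or more listed genes, organic ion and metal carriers had the highest shares listed in *Nsd2* fl/fl only, where 25.2% of all genes were. Among 20 organic ion carriers 9 were, and in family 22, which holds the polyspecific drug transporters of liver, kidney and gut, 8 of 15 were, against 1 in *Nsd2* ΔIE only, and no gene of family 22 with peaks in both had more length. *Slc22a4*, which carries ergothioneine, had 9437 bp in 2 peaks of *Nsd2* fl/fl. *Slc22a18* had a TSS peak of 7871 bp there. With promoter peaks alone the balance of the organic ion carriers turned from -8 to 2. *Slc22a12*, the renal urate exchanger, had 14291 bp and 17449 bp, part of them in *Nrxn2*. In *Slc22a23* a peak in intron 1 reached 10.9 per bp in *Nsd2* ΔIE. *Slc22a2*, *Slc22a3*, *Slc22a18* and *Slc38a4* are known as imprinted genes in the mouse. Their lengths were 4987 bp, 3057 bp, 7871 bp and 11580 bp in *Nsd2* fl/fl. The other library had 2936 bp for *Slc22a3*, 3902 bp for *Slc38a4* and no peak of the other two. The other carriers with a peak in *Nsd2* fl/fl only were *Slc10a4*, *Slc22a6*, *Slc22a8*, *Slc22a13b*, *Slc22a14* and *Slc22a20*, with 3110 to 5948 bp. The renal organic anion transporters *Slc22a6* (OAT1) and *Slc22a8* (OAT3) lie side by side on chromosome 19. Both drug and proton antiporters of family 47, *Slc47a1* and *Slc47a2*, were listed in *Nsd2* ΔIE only, with 5385 bp and 2719 bp, and so were *Slc22a17* and the hepatic bile acid carrier *Slc10a1*, with 6361 bp and 2926 bp. *Slc10a6* and *Slc22a15* had less length, and *Slc22a13* was similar.

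The metal carriers had 33 genes in the RefSeq list, of which 13 (39.4%) had a peak, the lowest share of the groups. Of these, 7 had a peak in *Nsd2* fl/fl only. They include *Slc11a2*, the iron importer of the gut, with 2955 bp before the gene, and *Slc30a1*, a zinc exporter, with 5559 bp in a neighbouring gene. By summed signal these peaks ranked 18357 and 3959 of 19976, the first of them near the limit of the list. *Slc39a14*, which takes up zinc and iron, had 12019 bp, at the promoter and in intron 1, and 4175 bp, at the promoter. *Slc39a11* was similar, with 18657 bp in 4 peaks and 19876 bp in 6. *Slc39a3* was listed in *Nsd2* ΔIE only, with 6318 bp, but a *Nsd2* fl/fl peak annotated to *Sgta* lay at the same place. The other carriers listed in *Nsd2* fl/fl only were the magnesium transporter *Slc41a1*, with 11614 bp, the zinc transporters *Slc30a6*, *Slc30a9* and *Slc39a2*, and *Slc39a5*, a zinc importer of gut and pancreas, whose 6975 bp overlapped a *Nsd2* ΔIE peak annotated to *Mir6915*. *Slc30a2* and *Slc31a2*, a relative of the copper importer, had 4765 bp and 8850 bp in *Nsd2* ΔIE only. *Slc41a3* was similar.

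The mitochondrial carriers of family 25 were listed for 21 of 48 genes (43.8%), where 43.4% of all protein-coding genes were. Less length was found in 11 (52.4%) and more in 5 (23.8%), against 43.3% and 39.7% of all listed genes. *Slc25a47*, a carrier known from liver, had the strongest peak of the genes listed in *Nsd2* fl/fl only, 11400 bp over its TSS, but this overlapped a *Nsd2* ΔIE peak annotated to *Gm22079*. *Slc25a42*, which carries coenzyme A, had 11430 bp and 11751 bp with 7897 bp in common. *Slc25a51*, the NAD carrier, had 16141 bp and 21192 bp, of which all peaks lay outside the gene and most in *Shb*. *Slc25a2* and *Slc25a41* were also listed in *Nsd2* fl/fl only, with 5135 to 7983 bp. *Slc25a4*, the ADP/ATP carrier of heart and muscle, *Slc25a23*, *Slc25a38* and *Slc25a40* had 2407 to 4835 bp in *Nsd2* ΔIE only. *Slc25a13*, the aspartate-glutamate carrier, *Slc25a18*, *Slc25a22*, *Slc25a25*, *Slc25a34*, *Slc25a45* and *Slc25a48* had less length, *Slc25a34* with 11683 bp against 4328 bp. *Slc25a1*, the citrate carrier, *Slc25a10*, the dicarboxylate carrier, and *Slc25a33* were similar.

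The fatty acid transport proteins of family 27 had more length in *Nsd2* ΔIE in 3 of 4 listed genes, against 39.7% of all genes. All 3 were listed in *Nsd2* ΔIE only, as were 31.5% of all genes. Only *Slc27a4*, the main one of the intestine, had a peak in *Nsd2* fl/fl, of 8320 bp. In *Nsd2* ΔIE it had 10034 bp, of which 6586 bp were shared, with an added promoter peak of 3448 bp. *Slc27a1*, *Slc27a2* and *Slc27a3* were listed in *Nsd2* ΔIE only, with 3268 bp, 4377 bp and 15273 bp, which makes 32952 bp for the family. This rests on 7 peaks. *Slc27a3* had peaks over the TSS (4765 bp), within the promoter window further inside (4791 bp) and at a 3′ UTR beyond the gene (5717 bp).

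Nucleoside and nucleotide sugar carriers had 9 of 25 genes listed in *Nsd2* ΔIE only, near the 31.5% of all genes, and 2 in *Nsd2* fl/fl only, where 25.2% of all genes were. Over the group the balance of more minus less was 1, and it was -1 with promoter peaks only, -2 without distal intergenic peaks or with equal numbers of peaks and -6 among genes with peaks in both. Of the one-library genes, 8 and 2 belong to family 35, which loads the Golgi with nucleotide sugars for glycosylation. *Slc35c1*, the GDP-fucose transporter, had the strongest peak of the genes listed in *Nsd2* ΔIE only, 8038 bp at its promoter, and 18415 bp in 3 peaks. *Slc35e2*, an orphan member of the family, had 13297 bp in *Nsd2* fl/fl only. Where both libraries had peaks, family 35 had 7 genes with less length, 3 similar and none with more. Of all genes with peaks in both libraries, 41.8%, 39.1% and 19.0% were in these classes. The balance over all listed genes of family 35, -1, was 3 with centred ratios, 5 at a log2 limit of 1 and 6 by numbers of peaks. *Slc35c2* had 17678 bp and 11332 bp, with 9388 bp in common, and *Slc35f6* had 18141 bp and 9410 bp. The CMP-sialic acid carrier *Slc35a1*, *Slc35b4*, *Slc35e3*, *Slc35f1*, *Slc35f5*, *Slc35g1* and *Slc35g3* and the nucleoside carrier *Slc28a1* had 2714 to 7044 bp in *Nsd2* ΔIE only, and *Slc35a5* 3371 bp in *Nsd2* fl/fl only. *Slc35b1*, *Slc35e1*, *Slc35e4*, *Slc35f3* and *Slc35f4* had less length, *Slc35e4* with 8316 bp against 2211 bp. *Slc35b3*, *Slc35d1*, *Slc35d3* and *Slc28a3* were similar. Family 29, the equilibrative nucleoside transporters, had peaks of all 3 listed genes in both libraries, with 17431 bp and 16098 bp in *Slc29a3*, 13757 bp and 10446 bp in *Slc29a4*, and 4170 bp and 6273 bp in *Slc29a1*.

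Of the 13 carriers of monocarboxylates and other carboxylates, 4 were listed in each library alone. Of all genes, 25.2% were in *Nsd2* fl/fl alone and 31.5% in *Nsd2* ΔIE alone. *Slc16a3*, the lactate exporter MCT4, had 9759 bp and 9886 bp, with both a TSS peak and a second peak shared, 5823 bp in all. *Slc16a1*, the carrier MCT1 that takes up butyrate in the colon, had 3261 bp in *Nsd2* ΔIE only. *Slc16a11* had 5309 bp over the TSS in *Nsd2* fl/fl and 12138 bp before the gene in *Nsd2* ΔIE. The other monocarboxylate carriers were *Slc16a7*, *Slc16a12* and *Slc16a13* in *Nsd2* fl/fl only, with 8291 bp, 4584 bp and 6229 bp, *Slc16a5* and *Slc16a14* in *Nsd2* ΔIE only, with 3979 bp and 3531 bp, and *Slc16a8*, similar in both. Of the sodium-coupled di- and tricarboxylate and sulfate family 13, *Slc13a2* and *Slc13a3* had less length, with 8859 bp against 4723 bp and 13402 bp against 5935 bp, and *Slc13a4* was listed in *Nsd2* fl/fl only.

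Of 9 vitamin and cofactor carriers, 5 (55.6%) had less length and 2 (22.2%) more, against 43.3% and 39.7% of all genes. *Slc19a1* was the carrier with the most shared length, 13902 bp out of 21087 bp and 21521 bp. *Slc52a3*, the riboflavin transporter of the gut, had 19042 bp and 11394 bp, each in 3 peaks, with 6019 bp in common. Of the phosphate carriers, *Slc20a1* had 3633 bp at its promoter in *Nsd2* ΔIE only. *Slc18a3*, the vesicular acetylcholine transporter, had the highest signal per bp of the carriers in *Nsd2* fl/fl, 9.99, in an exon of *Chat*, the gene of acetylcholine synthesis in which it is nested. *Slc66a2*, of the lysosomal family 66, had 10966 bp in *Nsd2* fl/fl only. The intestinal folate carrier *Slc46a1*, the heme carrier *Slc48a1* and the vitamin C carrier *Slc23a1* were listed in *Nsd2* fl/fl only, with 4470 bp, 9005 bp and 3495 bp. The second vitamin C carrier *Slc23a2* and *Slc46a2* were listed in *Nsd2* ΔIE only, with 5658 bp and 12396 bp. *Slc23a4* had 13437 bp against 3728 bp, and *Slc23a3* was similar. *Slc17a4* and the renal phosphate carrier *Slc34a1* had peaks in *Nsd2* ΔIE only, and *Slc34a3*, a relative of the latter, had less length. Of the vesicular carriers, *Slc17a8* for glutamate and *Slc32a1* for GABA had less length, *Slc17a7* for glutamate and *Slc18a2* for monoamines were similar, and *Slc17a9* for nucleotides had more, 6711 bp against 12144 bp. The urea carriers were *Slc14a1*, in *Nsd2* fl/fl only, and *Slc14a2*, similar in both. The choline carrier relatives were *Slc44a2* in *Nsd2* fl/fl only, *Slc44a5* in *Nsd2* ΔIE only and *Slc44a4* with 8559 bp against 14163 bp.

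The peptide carriers show the limit of naming a peak after the nearest TSS. *Slc15a4*, an endolysosomal carrier of histidine and peptides, had the most peaks of all carriers, 11 and 8 in the control and *Nsd2* ΔIE, with 51744 bp and 21766 bp. Of these, 5 and 3 lay within *Tmem132d* and 1 and 2 within *Tmem132c*, and 1 in each library lay in an exon of *Slc15a4*, of 5153 bp and 2328 bp and without overlap. *Slc15a1*, the intestinal peptide carrier PEPT1, had 4588 bp within *Dock9* in the control but 3326 bp at its own exon 2 in *Nsd2* ΔIE. Among all carrier peaks, 38 of 307 (12.4%) in *Nsd2* fl/fl and 33 of 320 (10.3%) in *Nsd2* ΔIE lay in an exon or intron of another gene, against 17.9% and 19.5% of all peaks. *Slc15a5* had 5009 bp and 7099 bp.

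Several carriers lie next to each other in the genome, and their peaks could differ within one cluster. On chromosome 13, *Slc6a18* was listed in *Nsd2* fl/fl only, *Slc6a3* and *Slc12a7* had less length in *Nsd2* ΔIE, and *Slc6a19*, the main neutral amino acid carrier of the brush border, had more, 3502 bp and 6173 bp. On chromosome 11, *Slc36a1* had less length, *Slc36a2* was similar at 5870 bp and 4497 bp, and *Slc36a3* and *Slc36a1os* were listed in *Nsd2* fl/fl only, the former by a peak in an exon of *Slc36a2*. On chromosome 6, *Slc6a12* had less length and its neighbour *Slc6a13* more, 4307 bp and 6537 bp.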

How the data were processed

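H3K36me2 CUT&Tag was measured in 1 colon library per genotype. The authors deposited 1 peak list per library, with, for each peak, its position, width, nearest gene, genomic feature and a summed signal, which reads as coverage summed over the region, with no scaling to depth stated. Their processing notes name Bowtie2, deepTools, SEACR and ChIPseeker, without versions, and the build hg38, although the libraries are from mouse. The build of the coordinates is therefore not given in the sources used here, and coordinates are printed as the lists give them. It is not GRCm38.p6, since 78 of the 227 genes have the same length but 2 the same start in the RefSeq table of that build. A control library is not given in the sources used here. The depth is unknown, so that no peak has an error of its own.

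The libraries were grouped by the genotype in the labels. Peak counts, widths, overlaps of at least 1 bp and the summed width per gene were computed in pandas 2.3.3 and numpy 2.4.6 under Python 3.11.15, with scipy 1.17.1 for 95% Wilson intervals. No peak overlapped another of its own list. The functions were tested on simulated lists. Families were put into substrate groups by hand. The named genes are the colon transporters, the 5 largest falls and rises of length, the 5 genes with the strongest peak listed in 1 library only, the 3 widest peaks, 3 highest signals per bp and 3 genes with most peaks per library, and the 2 longest genes of each family with at least 5 listed genes. Other genes were named after their values were seen, and some genes are not reported here by name but are in all counts. The carriers, the groups and these lists were chosen with earlier results of these data known. No test between genotypes was made, since there is 1 library of each. The alternatives tried were a reciprocal overlap, a 1 kb promoter, the share of the called length, a log2 limit of 1, centred ratios, numbers of peaks, promoter peaks only, no distal intergenic peaks, genes with peaks in both libraries only, equal numbers of peaks, no regulators, antisense genes and pseudogenes, merging within 1 kb, and peaks over the gene and 3 kb around it.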

Additional observations from a re-analysis of the deposited data

How the results depend on the processing

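Of 67 values recomputed under the alternatives, 55 stayed within 1.5 times the count, within the interval of the share or within 0.1 of the median log2 ratio. Some of the 55 could not move. The median log2 ratio does not depend on the log2 limit or on genes of 1 library, nor does the count of similar genes on the latter. Equal numbers of peaks kept the whole *Nsd2* fl/fl list. The balance of genes with more minus genes with less length over all carriers, -42, turned to 3 by numbers of peaks (78 carriers with fewer, 81 with more) and was -13 with centred ratios (96 with less, 83 with more). Over all genes the balance went from -661 to 1969 by numbers of peaks and to 1170 with centred ratios. A reciprocal overlap of 50% left 16.3% of the *Nsd2* fl/fl and 15.6% of the *Nsd2* ΔIE carrier peaks shared, and a promoter of 1 kb held 30.6% and 25.6%. A log2 limit of 1 gave 81 similar carriers and numbers of peaks gave 68, with a median log2 ratio of 0. Centring on all genes, whose median was -0.32, moved the carriers' median to -0.14. With promoter peaks only, 56 carriers had a peak in both libraries and 20 were similar. Among genes with peaks in both libraries, 60 had less and 22 had more length.

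Of 112 such balances, of all carriers, 8 substrate groups, 4 families and the colon list, 13 changed sign. For ion and acid-base exchange, at -5, centring gave 1 and numbers of peaks 3. For the colon list, at -2, both gave 2. For family 35, at -1, a log2 limit of 1 gave 5, centring 3 and numbers of peaks 6. For nucleosides and nucleotide sugars, at 1, promoter peaks gave -1, no distal peaks -2, equal numbers of peaks -2 and genes with peaks in both libraries -6. For organic ions, at -8, promoter peaks gave 2. The cause was not tested. No paired analysis was possible because there is 1 library of each genotype, so no replicate could be left out either. Unknown depth limits every absence of a peak.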
